A study of Homo sapiens with 2 samples.

Results

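The zinc metalloproteinases that cut the matrix around cells and the proteins on their surface, together with the inhibitors that hold them in check, were examined on 2 arrays of the retinoblastoma line Y79. Members were all transcript probes whose array symbol begins with MMP, TIMP, ADAM or ADAMTS followed by a digit. This gave 67 genes, measured by 100 of the 41000 probes: 30 MMP probes (23 genes), 6 TIMP probes (4 genes), 31 ADAM probes (21 genes) and 33 ADAMTS probes (19 genes). Of these probes, 97 were printed as 1 spot and 3 (MMP1, MMP2 and MMP9) as 10 spots each.

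The study asked which genes change when Ep-CAM, a surface adhesion molecule of epithelial cells, is silenced by RNA interference. One array held RNA of untreated Y79 cells, and the other RNA of Y79 cells collected 48 h after siRNA against Ep-CAM (gene symbol TACSTD1). Y79, an established human retinoblastoma line, is cultured in suspension. The study's methods add that both cultures had been given 5′-azacytidine, a DNA demethylating agent, which the sample labels do not name. The untreated cells carry no siRNA at all, so an effect of transfection and one of Ep-CAM siRNA cannot be told apart. With 1 array for each condition there was no replicate of either, and no test between conditions was possible. How precise a ratio can be is thus limited by having a single pair of arrays.

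Matrix metalloproteinases (MMPs) are made as inactive proenzymes and cleave collagens, gelatin and other matrix proteins once activated, some at the cell membrane and most after secretion. ADAMs are membrane-anchored relatives, several of which release the outer part of growth factors, cytokines and receptors such as Notch, while ADAMTSs are secreted and act on proteoglycans, procollagens and von Willebrand factor. Tissue inhibitors of metalloproteinases (TIMPs) block the active site of these enzymes, and in retinoblastoma the balance of MMPs and TIMPs has been studied in relation to invasion of the optic nerve and choroid.

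The level used below is the scanner software's processed signal, the brightness of a spot after background subtraction in arbitrary units. For a ratio, each array was divided by the median of its transcript spots (48.8 untreated, 50.0 siRNA-treated), and the log2 ratio is siRNA-treated over untreated. A signal of one probe cannot be set against that of another, since probes differ in how well they bind. Spots of a probe printed repeatedly had a median SD of the log2 ratio of 0.144 over 194 probes, which is a spread within the arrays and not between cultures. In one corner of the arrays, from row 355 to 532 and column 43 to 85, the log2 ratios of all measured probes were more scattered, with an SD of 0.51 against 0.29 outside it. The TACSTD1 probe was dim on both arrays (15.61 untreated, 11.96 siRNA-treated), so the silencing itself was not visible here. Of 8 photoreceptor or retinoblastoma marker genes 5 were detected, CRX and OTX2 among them, and RXRG, PDE6H and RCV1 were dim. Of all probes on the arrays 71.7% were detected, and most genes in the lists of other cell types were too. These were 3 of 5 for endothelium, 4 of 5 for epithelium and 5 of 7 for fibroblasts or other stroma. For glia 3 of 4 were detected, and for retinal pigment epithelium 4 of 5. All 7 genes of the macrophage list were detected. Of these LYZ stood apart (3045 untreated, 799 siRNA-treated), while the detected probes of the other 6 genes ran from -0.28 to 0.26 on the log2 scale and summed to 923 and 981. What part, if any, the LYZ difference has in the metalloproteinase values was not tested.

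Most probes of this family were well above background, at a share near that of all probes, and had log2 ratios near 0. Of the 100 probes, 75 were well above background on both arrays, 1 (MMP2) on the untreated array alone and 24 on neither, so that 76.0% were detected at least once, against 71.7% of all probes. By gene, 55 of 67 had a detected probe, and the same share over all genes is not given. Most marker genes of other cell types passed the same limit, so it does not by itself show expression of a gene. No member probe reached a log2 ratio of 1, while 1.27% of all probes detected at least once did. One member probe, for ADAM10, had a log2 ratio of -1 or less, against 0.925% of all detected probes. Neither count stands apart from these shares in a set of 76 detected probes.

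Over the 75 probes measured on both arrays the median log2 ratio was 0.01, with quartiles of -0.08 and 0.15 and an SD of 0.25. There were 38 probes above 0 and 37 below. Of these probes 96.0% lay within 0.5 of 0, compared with 89.3% of all 26976 measured probes, whose median was -0.03 and SD 0.33. The medians by family were -0.03 for MMPs, -0.06 for TIMPs, 0.02 for ADAMs and 0.04 for ADAMTSs. The probes farthest from 0 were those for ADAM10, TIMP2, one of the MMP1 probes and MMP12.

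**Figure D1:**
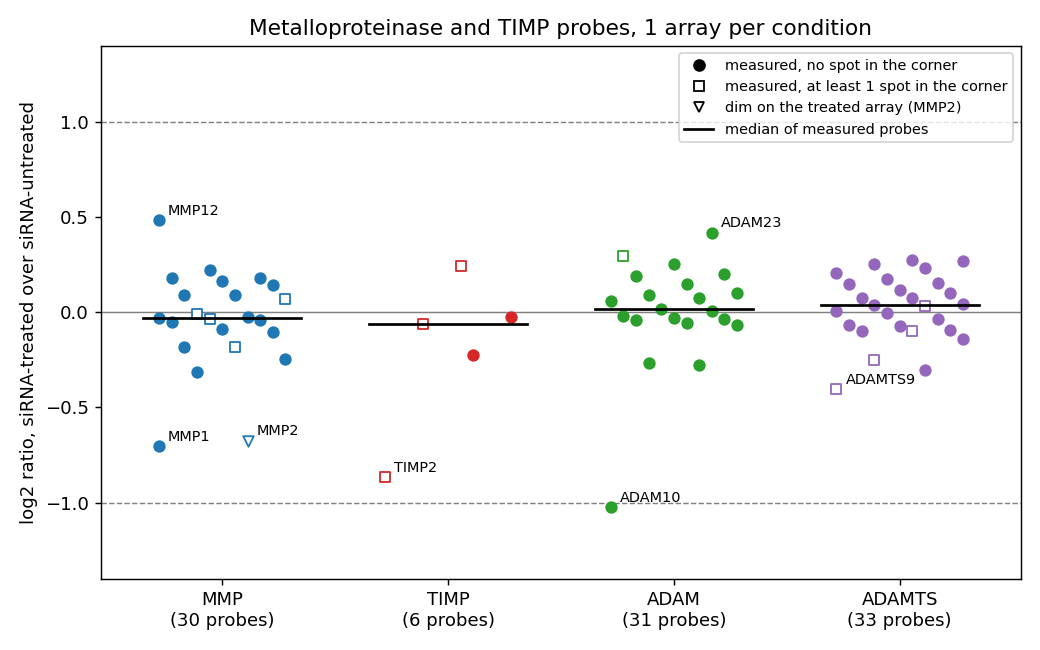
Log2 ratio (siRNA-treated over untreated) of each detected member probe by family, with 1 array per condition. Filled circles are probes with no spot in the corner, open squares probes with at least 1 spot in it, the triangle is MMP2, which was dim on the treated array, black lines are medians of measured probes, and dashed lines mark ratios of 2-fold. Nearly all points lie within 0.5 of 0, and ADAM10 at -1.02 is the single point past a dashed line.

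**Figure D2:**
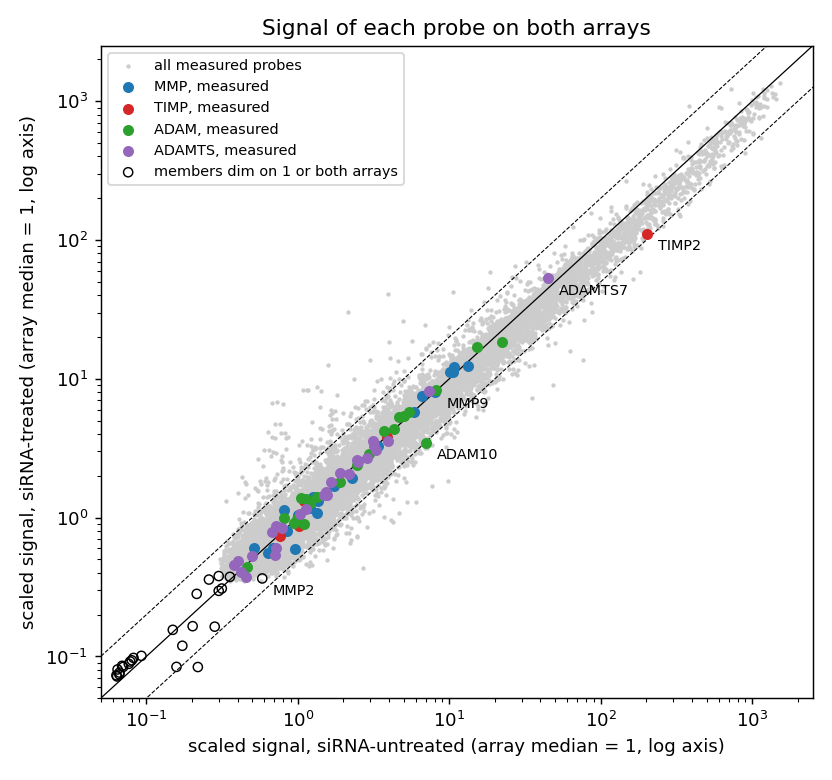
Scaled signal of each probe on the untreated (x) and siRNA-treated (y) array, both on log axes, with the array median at 1. Grey points are all probes measured on both arrays, colored points the measured members, open circles the members dim on 1 or both arrays. The solid line is equality and dashed lines mark 2-fold. The members run along the line of equality, with ADAM10 and TIMP2 near the lower dashed line.

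The sheddases, the ADAMs that release ectodomains of membrane proteins, held the one probe past 2-fold. ADAM10 is the alpha-secretase of the amyloid precursor protein and cuts Notch and cadherins, and ADAM17 releases tumor necrosis factor and several ligands of the epidermal growth factor receptor. ADAM17 is also known to release the outer part of Ep-CAM itself. Their probes are shown because these are the best-known sheddases of the family. The first 30 bases of each 60-base probe are printed as the array files give them, with no base in capitals. The array design places them on the minus strand of hg17, at chr15:56676547-56676606 for ADAM10 and at chr2:9580731-9580790 and chr2:9580230-9580289 for ADAM17.
ADAM10: caatgtacataccttgttatatgcagacat
ADAM17, first probe: gtcatgtgtttgaacttcctgcaggtaaac
ADAM17, second probe: ctctctagaaacctaaccacctaccttaca

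The ADAM10 probe (row 39, column 66, outside the corner) had a signal of 343.5 untreated and 172.9 siRNA-treated, or 7.04 and 3.46 times the array median. That is a log2 ratio of -1.02, or 2.03-fold lower, and 0.730% of all measured probes had a ratio as low. The scanner software's error estimates for the 2 signals, combined, came to 0.21 on the log2 scale. For the bright TIMP2 probe they came to 0.20, and they do not cover the spread between cultures. The 32 measured spots within 3 rows and columns around it had a median of -0.09 and a lowest value of -0.79, so none of them was past 2-fold. ADAM10 has 1 probe here, printed once, and no second measurement. Its count as lower was lost under 4 other settings, with log2 ratios of -0.99 without scaling, -0.995 after quantile normalization, -0.76 in the series matrix and -0.81 under a second background correction.

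The ADAM17 probes lay above 0. The first (row 71, column 48) read 246 untreated and 271 siRNA-treated, a log2 ratio of 0.10. The second (row 188, column 67) read 55.4 and 67.7, a log2 ratio of 0.25. Under normexp both turned below 0 (-0.27 and -0.06), where the median of all probes was -0.20. ADAM15, another membrane-bound sheddase, read 120.8 and 120.6 (log2 ratio -0.04, row 364, column 33), and came to -0.28 under normexp. ADAM9 could not be measured, since both of its probes were dim on both arrays, with signals of 7.72 and 3.43 untreated and 4.21 and 4.21 siRNA-treated.

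Among the other sheddases, ADAM33 was measured by 2 probes. One read 1082 untreated and 915 siRNA-treated (log2 ratio -0.28, row 216, column 85), and the other 263 and 287 (0.09, row 178, column 17). The probes of this gene thus lay on opposite sides of 0, 0.37 apart. Over the 10 measured sheddase probes the median was 0.03, and 5 further probes of the list were dim. ADAM12 had a measured probe at 0.19 and a second one that was dim on both arrays (10.7 and 4.20), for which no ratio is given. ADAM19, a sheddase of neuregulin, had probes at 0.20 and -0.06.

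Some ADAMs lack protease activity, and 3 of them (ADAM11, ADAM22 and ADAM23), known as adhesion proteins of the nervous system, were detected. ADAM23 had the highest ratio of all ADAM probes, with 51.0 untreated and 69.7 siRNA-treated (0.42, row 505, column 23). The spots around it had a median of 0.29, and were thus mostly higher on the treated array as well. Over the 5 measured probes of this list the median was -0.02. Of the 9 ADAM genes known mainly from testis or, like ADAM6, without a known protease product, 5 were detected. ADAM7 read 747 untreated and 848 siRNA-treated (0.15), and ADAM21 401 and 416 (0.02).

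TIMP2 had the lowest ratio of the inhibitors. TIMP2 inhibits MMPs and, in complex with MMP14, takes part in activation of pro-MMP2, so its probes and those of both gelatinases are shown together. Again the first 30 bases of each probe are given, with no capitals. They lie on hg17 at chr17:74363249-74363308 and chr17:74398565-74398624 on the minus strand for TIMP2, chr16:54096763-54096822 on the plus strand for MMP2 and chr20:44078528-44078587 on the plus strand for MMP9.
TIMP2, first probe: aaagcctccaagggtttcgactggtccagc
TIMP2, second probe: gcttgaacaaatggaacacccagatatgag
MMP2: ttcttcaagggtgcctattacctgaagctg
MMP9: tggaggtgggctgggccctctcttctcacc

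The first TIMP2 probe, designed on a RefSeq transcript, read 9853 untreated and 5530 siRNA-treated, or 202 and 111 times the array median. That is a log2 ratio of -0.87, or 1.83-fold lower, and 1.46% of all measured probes were as low. The spot lies in the corner (row 363, column 64). The 34 measured spots around it ran from -0.72 to 0.45, with a median of 0.04 and an SD of 0.25. What part its place has in the value was not tested. This probe is also the only member probe above 100 times the array median. The 675 measured probes that bright had a median of -0.30, compared with -0.02 for the 16340 probes between 1 and 10 times the median. What part this shift of bright probes has in the TIMP2 value was not tested. Quantile normalization, which sets the signal distributions of the arrays equal, brought TIMP2 to -0.52. Background correction by normexp brought it to -1.57, past 2-fold. Under normexp the median of all probes was -0.20, and 1056 probes had a log2 ratio of -1 or less, against 272 before. The second TIMP2 probe, designed on a cDNA clone, was dim on both arrays (9.87 and 8.27) and gave no ratio.

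The other inhibitors stayed within 0.25 of 0 with the main processing. Under normexp, where the median of all probes was -0.20, the first TIMP3 probe named below came to -0.38. TIMP1, a secreted inhibitor of most soluble MMPs, read 37.4 and 36.7 (log2 ratio -0.06, row 396, column 59, in the corner). TIMP3, which binds the matrix and inhibits ADAM10 and ADAM17 as well as MMPs, read 188 and 190 (-0.02, row 255, column 42) with one probe. Its other probe read 49.6 and 43.5 (-0.23, row 65, column 73) and lies on the opposite strand in the array design, so the probes need not measure the same transcript. TIMP4 read 53.8 and 65.4 (0.25, row 463, column 57, in the corner), while the spots around it had a median of -0.22.

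The gelatinases MMP2 and MMP9, which digest denatured collagen and basement membrane collagen, were each printed 10 times. All 10 MMP2 spots were lower on the siRNA-treated array. Untreated, their lowest, median and highest signals were 22.3, 27.5 and 36.4, and siRNA-treated they were 11.2, 18.4 and 26.6. The ranges overlapped in part, and each spot read lower than the same spot did untreated. All 10 spots were well above background untreated, but on the siRNA-treated array 4 of 10 were, so MMP2 counted as dim there. The mean log2 ratio was -0.67, or 1.60-fold lower, with an SD of 0.31 over 10 spots of the same 2 hybridizations, and 3 of the spots were past 2-fold. These signals are close to the detection limit of the arrays, where the lowest signals well above background were 14.9 untreated and 17.5 siRNA-treated. Before background subtraction the difference was small: the median raw brightness of the 10 spots was 100.0 untreated and 92.0 siRNA-treated. With other background treatment the log2 ratio was -0.18 (normexp fitted without the spots dimmer than their background) and -0.20 (series matrix, from 1 spot). Under normexp fitted on all spots MMP2 gave no ratio.

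MMP9 had a log2 ratio of -0.01. The tenth spot (row 525, column 72, in the corner) was marked as an outlier by the scanner software on the untreated array and left out there, and leaving it out on both arrays gave -0.003. Over the other 9 spots its lowest, median and highest signals were 357, 395 and 443 untreated and 380, 403 and 447 siRNA-treated, so that the ranges overlapped over most of their length. Of these spots 6 had a ratio below 0 and 3 above. The SD of the log2 ratio over the 9 spots was 0.12.

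**Figure D3:**
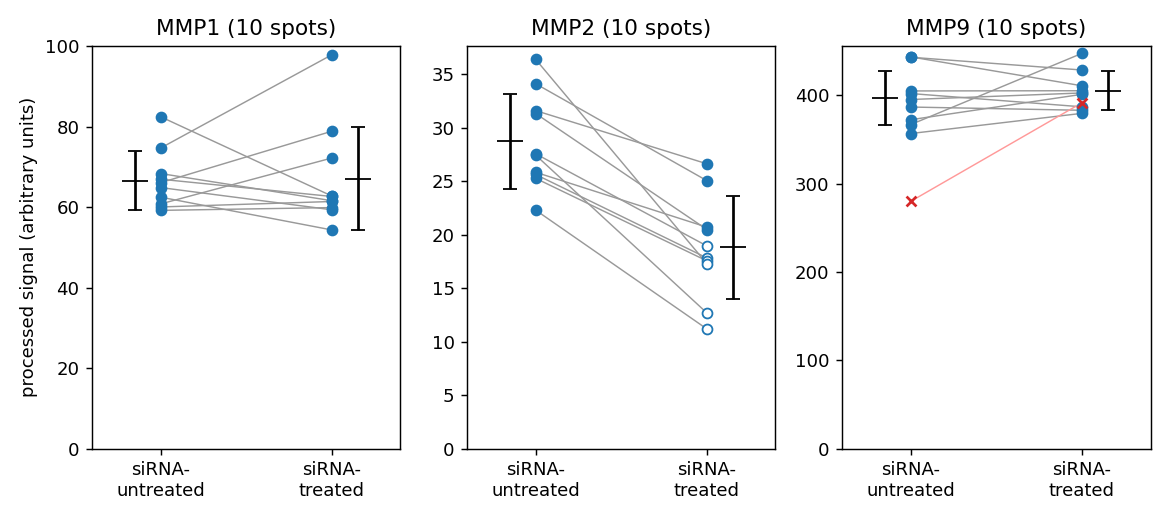
Processed signal (arbitrary units, axes from 0) of the 10 spots of the MMP1, MMP2 and MMP9 probes on the untreated and siRNA-treated array; lines join the same spot on both arrays. Filled points are well above background, open points are not, red crosses are the MMP9 spot left out as an outlier, and black bars are the mean and SD over the spots used. All 10 MMP2 lines go down, while those of MMP1 and MMP9 go both ways.

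Collagenases cut fibrillar collagen, and MMP1, the interstitial collagenase, was the gene with the widest gap between probes that carry its symbol. The probes are printed because they lie on opposite strands on hg17: the first, for the RefSeq transcript, at chr11:102165907-102165966 on the minus strand, and the second, for a cDNA clone that carries the MMP1 symbol, at chr11:102208190-102208249 on the plus strand, between the first probe and the MMP3 probe. They need not measure the same transcript. As above, the first 30 bases are printed with no capitals.
MMP1, first probe: acatgtgcagtcactggtgtcaccctggat
MMP1, second probe: cagctcctaatggttaatgtgaaacttacc

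The first MMP1 probe, printed 10 times, averaged 66.6 ± 7.24 (SD) untreated and 67.1 ± 12.9 siRNA-treated. Its log2 ratio was -0.04 (SD 0.24), below 0 in 7 spots and above in 3. The second probe (row 201, column 22) read 47.0 and 29.6, a log2 ratio of -0.70, with a median of -0.17 in the spots around it. The probes differed by 0.67, the largest gap of the 18 genes with several measured probes, whose median gap was 0.24. In the series matrix, and under the other background corrections, the second probe was nearer to 0 (-0.25 in the matrix, -0.12 under normexp). Besides MMP1 and TIMP3 no member gene had probes on both strands.

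Of the other collagenases MMP8 was measured (58.4 and 58.7, log2 ratio -0.03) and MMP13 was dim. Both matrilysins (MMP7 and MMP26), small MMPs without a hemopexin domain, were dim on both arrays, as was the stromelysin MMP3. The stromelysins MMP10 and MMP11 were measured, at 0.07 and -0.18. MMP1, MMP3, MMP7, MMP8, MMP10, MMP12, MMP13, MMP20 and MMP27 lie side by side on chromosome 11, between positions 101899239 and 102320295 of hg17. In this cluster of 9 genes 7 of 11 probes were measured, and they ran from -0.70 to 0.48 with a median of -0.03, on both sides of 0. The top of this range was MMP12, the macrophage elastase, with 39.3 and 56.3 (0.48, row 517, column 33). Its neighborhood had a median of 0.26, and the second MMP12 probe, elsewhere on the array, read 25.3 and 30.2 (0.22, row 123, column 11).

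Membrane-type MMPs stay anchored at the cell surface, and all 6 genes were detected. MMP14, which activates pro-MMP2, read 61.1 untreated and 70.9 siRNA-treated (log2 ratio 0.18, row 224, column 5; -0.01 under normexp). MMP15 read 287 and 289 (-0.03) with one probe and 84.2 and 83.9 (-0.04) with the other. MMP17, anchored by a lipid, read 513 and 559 (0.09). Over the 7 measured probes of this list the ratios ran from -0.25 to 0.18, with a median of -0.03.

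Of the remaining MMPs, MMP28 and MMP19 were each measured by 2 probes. MMP28, also called epilysin, read 647 and 618 (-0.10) with one probe and 525 and 603 (0.17) with the other. MMP19 read 495 and 559 (0.14) and 323 and 375 (0.18), while a further probe was dim. In all, 22 MMP probes were measured and 7 were dim on both arrays.

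The log2 ratios of ADAMTS probes were the least scattered of the families, with an SD of 0.17 over 27 measured probes. Of 19 ADAMTS genes 18 had a detected probe. The exception was ADAMTS1, which cleaves aggrecan and versican and was dim with both probes. Its neighbor on chromosome 21, ADAMTS5, the main aggrecanase of cartilage, read 160 and 153 (log2 ratio -0.10). ADAMTS7 was measured by 3 probes, at 2201 and 2646 (0.23), 120 and 129 (0.07) and 73.0 and 72.9 (-0.04). ADAMTS13, which cuts von Willebrand factor, read 357 and 406 (0.15), 192 and 178 (-0.14) and 75.6 and 72.5 (-0.10). For both genes the probes lay on both sides of 0. The procollagen N-proteinases ADAMTS2, ADAMTS3 and ADAMTS14 lay between -0.09 and 0.17. The lowest ADAMTS ratio was that of ADAMTS9 (34.7 and 26.9, -0.41, row 398, column 82, in the corner), where the surrounding spots had a median of -0.23.

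**Figure D4:**
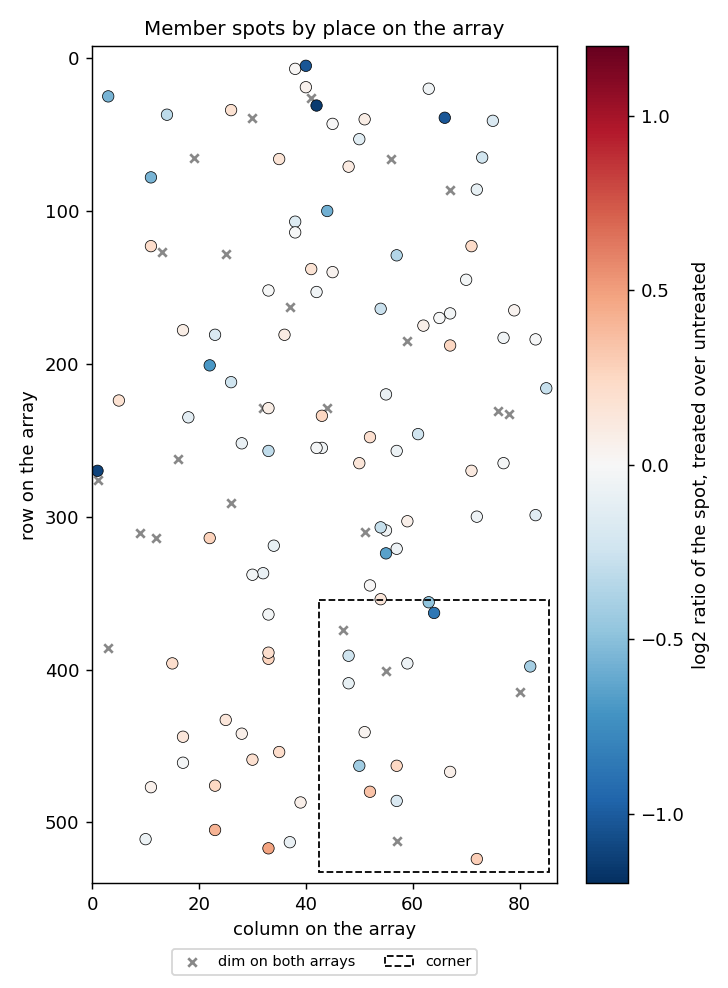
Place of each member spot on the array by row and column, colored by its log2 ratio (siRNA-treated over untreated; blue lower, red higher). Grey crosses are single-spot probes dim on both arrays, the dashed box outlines the corner of more scattered ratios, and the 10 MMP2 spots are included although most were dim on the treated array. The ADAM10 spot lies outside the box and the TIMP2 spot inside it.

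The corner held 10 of the 75 measured probes in full, or 13.3%, against 16.3% of all measured probes. Their log2 ratios had an SD of 0.34, and the 63 probes with no spot in it an SD of 0.23. For all probes the same values were 0.51 and 0.29. In 16 of the 18 genes with several measured probes these lay within 0.3 of each other, where the SD over all measured members was 0.25. In 9 genes one probe was detected and another was dim on both arrays.

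The 12 genes with no detected probe were MMP3, MMP7, MMP13, MMP20, MMP26, ADAM2, ADAM9, ADAM18, ADAM28, ADAM30, ADAM32 and ADAMTS1. For these no ratio could be given. The 24 dim probes had a median GC content of 40%, against 45.0% in the measured members. For all probes the contents were 36.7% and 45.0%.

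Promoters were searched for TGANTCA, with any base at N. This is a loose form of the sequence that AP-1, the dimer of FOS and JUN proteins, binds in several MMP genes. The AP-1 genes differed strongly between the arrays, FOS at 2372 untreated and 454 siRNA-treated (log2 ratio -2.42) and JUN at 8048 and 2613 (-1.65). The motif TGANTCA, read on both strands, was looked for from 250 bases before to 50 bases after the start in the RefSeq promoter table (GRCh38.p14), which matched 39 of the 67 genes. It was found in 4 of them (10.3%), against 7.71% of all 35116 promoters. Each is given as 37 bases on the minus strand of GRCh38.p14, with the motif in capitals, at chr11:102530793-102530829 for MMP7, chr11:102780674-102780710 for MMP10, chr11:102625423-102625459 for MMP20 and chr5:33892053-33892089 for ADAMTS12.
MMP7: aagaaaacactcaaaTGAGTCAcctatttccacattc
MMP10: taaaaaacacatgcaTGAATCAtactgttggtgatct
MMP20: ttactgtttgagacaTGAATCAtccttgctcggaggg
ADAMTS12: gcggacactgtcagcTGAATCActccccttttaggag

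Of these genes MMP7 and MMP20 were dim on both arrays. MMP10 had a log2 ratio of 0.07 (48.8 and 52.4), and the measured ADAMTS12 probe one of 0.26 (18.6 and 22.8). Among matched genes without the motif 33 had a measured probe, and their 45 measured probes had a median of 0.01. In MMP10 and ADAMTS12 the match was TGAATCA. Whether AP-1 has any part in the values of this family was not tested. A match is a string of letters and no proof of binding, and genes missing from the promoter table were not searched.

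Partners of the family were listed as well. Of 27 genes on the array for activators and regulators (plasminogen activators, furin-type proprotein convertases, RECK, iRhoms and ADAMTS-like proteins among them), 22 were detected, and their 36 measured probes had a median of -0.01 and ran from -0.86 to 0.79. The ends of this range, both in the corner, were FURIN, the convertase that activates several of these enzymes (51.1 and 28.8, row 392, column 76), and RHBDF1, an iRhom that helps ADAM17 mature (96.8 and 171, row 485, column 66). One probe was past 2-fold, for the matrix protein ADAMTSL3, at 11.8 untreated (dim) and 52.9 siRNA-treated, which is at least 3.45-fold higher. This spot lies in the corner (row 497, column 74), and another ADAMTSL3 probe read 330.0 and 287 (-0.24), with a further one dim on both arrays. Of 31 substrate genes 27 were detected, and none of their 43 measured probes was past 2-fold (median 0.02, from -0.55 to 0.89). The highest were LAMA1, a laminin chain (44.1 and 83.8, 0.89, row 477, column 81, in the corner), whose other measured probes lay at 0.16 and 0.04, and CDH2, N-cadherin (24.0 and 44.1, 0.84, row 529, column 11). The substrates APP, NOTCH1, PRNP and TGFA were dim.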

How the data were processed

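RNA expression was measured on 2 one-color Agilent 44K arrays, 1 per condition, grouped by their labels. The deposited files hold spot intensity values that the authors made with Agilent Feature Extraction (9.5.3.1 in the file headers, another version in the series text). After removal of controls and outliers, signals were scaled to the 50th percentile of the array, floored at 0.01, log2-transformed and averaged over the spots of a probe (Python 3.11.15, pandas 2.3.3; normexp with an offset of 50 by limma 3.58.1 in R 4.3.3). Detection of a probe needed 50% or more of its spots well above background. Where it was dim on 1 array, the lowest signal well above background, or its own if higher, gave a bound. Calls were made at a log2 ratio of 1. The deposited series matrix holds raw intensity. Members and lists were chosen with earlier results of these data known. Named were all TIMPs, MMP2, MMP9, MMP14, ADAM9, ADAM10, ADAM15, ADAM17, members past 2-fold or with a bound, the 12 genes of highest mean signal and genes whose probes differed by over 0.5; other names were chosen after their values were seen. Of the 100 accessions 85 were found in RefSeq, all with the same symbol. Exon and UTR positions were not analysed here.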

Additional observations from a re-analysis of the deposited data

How the results depend on the processing

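No member probe was higher under any of the 12 alternatives, and the median log2 ratio of the measured members ran from -0.13 to 0.04. The number of lower probes was 1 in the values above. It was 0 without scaling, after quantile normalization, in the series matrix, and under normexp fitted without the spots dimmer than their background. That last setting, in which the fit was then applied to all spots, was added after the data were seen. The number of lower member probes was 2 under normexp (ADAM10 and TIMP2), 2 with no filter on dim probes (ADAM12 added) and 2 at a ratio below 0.55 (TIMP2 added). Over all probes, 272 were lower in the values above and 1056 under normexp. There were 237 without scaling, 219 after quantile normalization, 80 in the series matrix and 77 under normexp fitted without those dim spots. With no filter on dim probes and at a ratio below 0.55 no count over all probes is given. The member counts under these settings thus have no share beside them. The higher count over all probes was 372 in the values above, 45 under normexp and 400 without scaling. ADAM10 ran from -1.11 to -0.76, TIMP2 from -1.57 to -0.52 and MMP2 from -0.69 to -0.18. This range of MMP2 leaves out normexp fitted on all spots, where MMP2 gave no ratio. MMP9 was -0.54 under normexp, which shifted the median of all probes to -0.20, and 0.55 in the series matrix. With the more lenient detection flag 89 member probes were detected. Signs also turned for ADAM17 (-0.27 and -0.06) and MMP14 (-0.01) under normexp, for the first MMP1 probe in the series matrix (0.25), for one TIMP3 probe without scaling (0.01), and for MMP9 under 4 scalings and without the corner, at 0.01 to 0.06. The causes of these differences were not tested. Signal over background limited what could be measured: for the 24 dim probes a change that stayed below the background limit was not detectable, and 1 array per condition leaves the spread between cultures unknown.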

Other observations

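The series matrix, a table of 1 value per probe, held a single spot for probes printed 10 times. For all 264 such probes its value was the raw median brightness of the last spot on each array. This matters for 3 members. The MMP9 value of the matrix, 243.5 untreated and 368 siRNA-treated, is that of the corner spot that the scanner software marked as an outlier, while the median over its 10 spots was 489 and 497. For MMP1 the matrix held 132 and 162, against medians of 136 and 134. For MMP2 it held 113 and 102, against 100.0 and 92.0. Read from the matrix alone, from raw brightness, MMP9 had a log2 ratio of 0.55 and MMP1 one of 0.25. Over their spots, from the background-subtracted signal, the ratios were -0.01 and -0.04, so the measure differs as well as the spots.

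One further probe, with the array symbol TMDCII, carries an accession that RefSeq now names ADAM5. It was no member by symbol and was dim on both arrays (4.64 untreated, 4.48 siRNA-treated).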
